A study of Mus musculus with 2 samples.

Results

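Cells make cholesterol from acetyl-CoA through the mevalonate pathway, and the enzymes of that pathway are switched on together when the membranes of the endoplasmic reticulum run short of sterol. The 7 genes described here were Hmgcs1, Idi1, Fdft1, Sqle, Lss, Dhcr7 and Insig1, of 34650 gene names on the array, and they were chosen by name, as all probes carrying one of these symbols. They were measured in 2 cultures of primed pluripotent cells, which are the in vitro counterpart of the post-implantation epiblast. Both came from the mouse embryonic stem cell line E14Tg2A, strain 129/Ola, and both were kept in a chemically defined medium with N2 and B27 supplements, FGF2 at 12 ng/mL and Activin A at 20 ng/mL. EpiSC (epiblast stem cells) were obtained by putting ES cells, previously grown with serum and LIF, directly into this medium. ELA-EpiSC were obtained from epiblast-like aggregates (ELA), floating clusters that form after LIF and serum are withdrawn, which were dissociated and then given the same 2 factors. Each condition was represented by 1 array, and each array by 1 pool of RNA from 3 experiments with this line. There was therefore no replicate, no test of a difference between the conditions could be made, and no p-value is given. The groups were taken from the sample titles and descriptions. The source field named an Argonaute immunoprecipitation for the EpiSC sample and total RNA for the other, both at 0DIV, whereas the molecule was given as total RNA for both.

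Of the 7 genes, 6 encode enzymes and 1 a regulator. Hmgcs1 and Idi1 act in the early, water-soluble part of the pathway. Fdft1 commits its product to sterols, Sqle and Lss prepare and close the ring system, and Dhcr7 carries out a final reduction. Insig1 encodes a protein of the endoplasmic reticulum that retains SCAP, the escort of the SREBP transcription factors, when sterols are plentiful, and it is itself a target of SREBP. None of the 7 encodes an uptake receptor, so the uptake side is described further on through other genes. SREBP proteins bind sterol regulatory elements in promoters, usually next to sites for NF-Y and Sp1.

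To show the sequence in front of these genes, promoters were taken from RefSeq (build GRCm38.p6), each from 250 bases before to 50 bases after a transcription start. The table held promoters for 5 of the 7 genes, namely Hmgcs1, Idi1, Lss, Dhcr7 and Insig1, with 3 for Dhcr7. The 250 bases before the start are printed for 4 genes, the pair of early enzymes, the one gene with the higher signal in ELA-EpiSC, and the regulator. All 4 lie on the plus strand. Capitals mark CCAAT, the core of the NF-Y site, read on either strand (ATTGG on the printed one), and matches to CACNCCAC, the core of the sterol regulatory element. At Hmgcs1 the capitals take in the longer TCACNCCAC, of which that core is a part.
Hmgcs1, chr13:119690101-119690350: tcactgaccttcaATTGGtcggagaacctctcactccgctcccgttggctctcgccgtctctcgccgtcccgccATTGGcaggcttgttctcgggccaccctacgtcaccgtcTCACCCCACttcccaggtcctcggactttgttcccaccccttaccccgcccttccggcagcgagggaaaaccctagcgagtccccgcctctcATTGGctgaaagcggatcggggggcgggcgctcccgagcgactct
Idi1, chr13:8885356-8885605: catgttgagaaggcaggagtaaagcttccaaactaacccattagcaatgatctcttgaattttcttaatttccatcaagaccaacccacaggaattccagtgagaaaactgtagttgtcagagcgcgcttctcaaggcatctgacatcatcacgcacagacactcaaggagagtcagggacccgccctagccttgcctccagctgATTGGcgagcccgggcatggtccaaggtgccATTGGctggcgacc
Lss, chr10:76531355-76531604: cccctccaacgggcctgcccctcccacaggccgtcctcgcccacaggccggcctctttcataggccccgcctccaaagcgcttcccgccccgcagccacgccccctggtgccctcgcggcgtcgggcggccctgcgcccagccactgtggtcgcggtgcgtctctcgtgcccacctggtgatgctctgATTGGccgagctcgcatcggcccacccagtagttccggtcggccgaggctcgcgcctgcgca
Insig1, chr5:28071162-28071411: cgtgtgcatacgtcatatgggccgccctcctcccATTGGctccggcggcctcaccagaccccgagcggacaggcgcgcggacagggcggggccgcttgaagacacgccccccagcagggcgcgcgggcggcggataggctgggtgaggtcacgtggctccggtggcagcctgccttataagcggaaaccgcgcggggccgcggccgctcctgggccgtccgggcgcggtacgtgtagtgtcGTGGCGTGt

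TCACNCCAC was found in the window of Hmgcs1 only, 137 bases before the start and written TCACCCCAC, whereas 1.24% of the 32851 promoters in the table held it. The shorter CACNCCAC occurred in 6.24% of promoters and in the windows of Hmgcs1 and Insig1. At Insig1 it lay on the opposite strand, 9 bases before the start. CCAAT was present in at least 1 window of all 5 genes, and 37.4% of all promoters held it. Dhcr7 had several windows, and its windows 1 and 2, in order along the chromosome, held no CCAAT. Hmgcs1 had 4 copies, of which 1 lay after the start and is not in the printed stretch, Idi1 had 2, and Lss and Insig1 had 1 each. GGGCGG, the core of an Sp1 site, was found in at least 1 window of all 5 genes, and 35.7% of all promoters held it. Window 2 of Dhcr7 had no GGGCGG. A gene with several windows has more chances of a match, so these counts per gene are not directly comparable with the shares of promoters. These matches describe letters in a window and were not tested as sites.

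The array carried 9 probes for the 7 genes, 2 each for Hmgcs1 and Fdft1. Signals are given as background-corrected, quantile-normalized log2 values, and differences as ELA-EpiSC minus EpiSC. Levels of different probes are not compared, because probes differ in how brightly they hybridise. As a measure of technical spread, 312 probes printed 10 times and detected had a spread of 0.10 (SD, log2) in the between-array difference of single spots. The difference was taken at the same spot position on both arrays, so position effects that the arrays share are not in it. It also leaves out labelling and the variation between cultures. The difference of every gene's main probe was between 3.58 times (Lss) and 14.04 times (Insig1) this SD. No spot was saturated.

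In the signal of each probe, 6 of the 7 genes were lower in ELA-EpiSC and Lss was higher; when the arrays were set to equal spike-in signal, Fdft1, Sqle and Dhcr7 changed side. Insig1 and Idi1 were past 2-fold, 2 of 7 genes, while 4.46% of the 16649 genes with sufficient signal were past it in the same direction. With Hmgcs1, 3 of 7 were past 1.5-fold lower, compared with 10.9% of all genes. None of the 7 was past 1.5-fold or 2-fold higher, where the shares of all genes were 11.1% and 4.54%. The median difference of the 7 was -0.51, beside a median of 0.00 over all genes, of which 8291 were lower and 8357 higher.

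**Figure D1:**
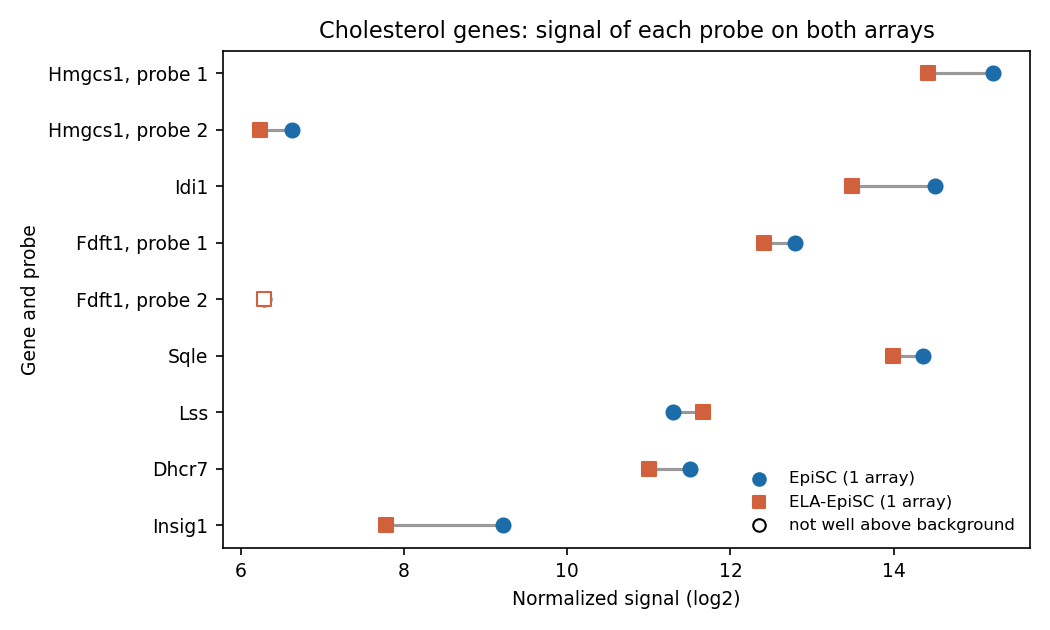
Normalized log2 signal (x axis) of each of the 9 probes (y axis) on the EpiSC array (circles) and the ELA-EpiSC array (squares), 1 array each with no error bars; open symbols were not well above background. The circle lies to the right of the square for every detected probe except that of Lss.

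Hmgcs1 and Idi1, the earliest of the enzymes, had lower differences than the 4 later ones. Hmgcs1 encodes the HMG-CoA synthase of the cytosol, an early enzyme of the pathway. Its main probe read 15.22 in EpiSC and 14.43 in ELA-EpiSC, from scanned signals of 38209 and 23005 above a local background of 23 and 18. The signal was thus 1.73-fold higher in EpiSC, a log2 difference of -0.79. It lay on chr13_random:114793-114852 of mm9, the build of the array design, on the minus strand. A second probe, on chr13_random:114558-114617, was dim, at 6.62 and 6.23, with scanned signals of 64.9 and 47.5. It differed by -0.39, in the same direction, but between -1.48 and 0.15 over the other ways of scaling the arrays. The bright probe is therefore the one that carries the value for Hmgcs1.

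Idi1 encodes isopentenyl diphosphate isomerase, which balances the isoprene units that build every isoprenoid. Its probe, on chr13:8891524-8891583 of mm9, read 14.51 in EpiSC and 13.49 in ELA-EpiSC. The scanned signals were 22247 and 12404, and the difference was -1.02, or 2.02-fold higher in EpiSC. This is close to the 2-fold line, and it fell short of it with median scaling (-0.90), with cyclic loess (-0.99) and with spike-in scaling (-0.48).

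The enzymes that turn the linear chain into a sterol differed by less, and not all in one direction. Fdft1, squalene synthase, read 12.79 in EpiSC against 12.41, which is a difference of -0.38. Its scanned signals, 6492 and 5992, were closer to each other than the normalized ones. The interval given for this probe of 60 bases, chr14:63765750-63769990 of mm9, covers 4241 bases, so its position there is not contiguous. The other Fdft1 probe, on chr14:63764562-63764621, was not well above background on the 2 arrays and gives no difference. Sqle, squalene epoxidase, which adds the first oxygen, had a very similar difference of -0.37. Its probe on chr15:59162688-59162747 read 14.37 and 13.996, from scanned signals of 20047 and 17354.

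Lss, lanosterol synthase, folds the product of Sqle into the first sterol and was the one gene of the 7 on the other side. Its probe, on chr10:76015992-76016051 of mm9, read 11.29 in EpiSC and 11.66 in ELA-EpiSC. The scanned signals were 2242 and 3554, and the difference of 0.37 corresponds to a signal 1.29-fold higher in ELA-EpiSC. It was above 0 under all 15 alternatives, from 0.36 with Agilent's processed signal to 0.90 with spike-in scaling, and it was past 1.5-fold with the latter and with median scaling (0.60). Fdft1 and Sqle, immediately before it in the pathway, and Lss thus lay on opposite sides of the median of all genes under the processing used and each alternative.

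Dhcr7, the reductase that makes cholesterol in the last step of one branch, read 11.50 in EpiSC and 11.00 in ELA-EpiSC. The scanned signals of its probe, on chr7:151033874-151033933 of mm9, were 2595 and 2216. The difference of -0.51 corresponds to 1.42-fold higher signal in EpiSC and was the middle value of the 7.

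Insig1 had the largest difference of the 7 genes. Its probe, on chr5:28404246-28404305 of mm9, read 9.21 in EpiSC and 7.78 in ELA-EpiSC. The scanned signals were 507 and 208, well above background on both arrays. The difference was -1.43, a signal 2.70-fold higher in EpiSC. Because the signal was low, the difference was compressed by the offset of 50 added in background correction, and it was -1.68 with no offset. With spike-in scaling it was -0.90, and with a minimum mean level of 9 the gene was left out. Only 2.14% of all genes had a lower difference than Insig1, compared with 4.28% for Idi1, 6.67% for Hmgcs1 and 13.4% for Dhcr7. The corresponding shares were 18.97% for Fdft1 and 19.4% for Sqle, both inside the bulk of the distribution, and 80.5% for Lss.

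**Figure D2:**
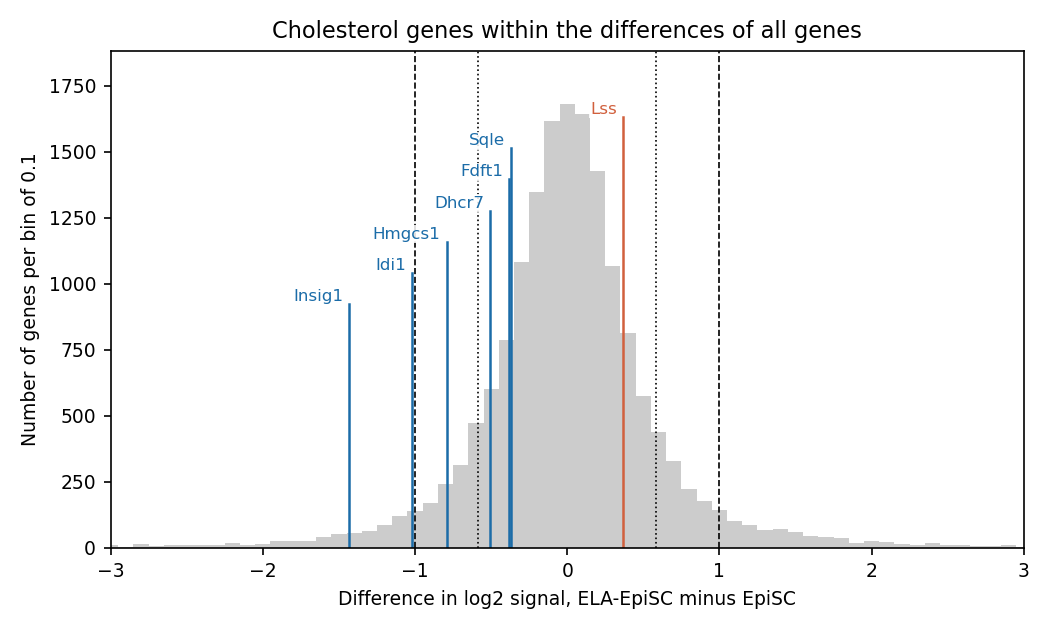
Number of genes (y axis) per bin of 0.1 in the log2 difference, ELA-EpiSC minus EpiSC (x axis), for the 16649 genes with sufficient signal; coloured lines mark the 7 genes (their height has no meaning), dotted lines 1.5-fold and dashed lines 2-fold. Insig1 and Idi1 lie past the dashed line, Hmgcs1 between the lines and the other 4 inside them.

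The side on which several of these genes fell depended on what was held equal between the arrays. Quantile normalization sets the distribution of all signals equal, and 91.0% of genes then differed by less than 2-fold. Of 10 control probes for spike-in RNAs, which the array's manufacturer supplies for addition to each sample, 8 were above background. All 8 read higher in EpiSC, by 0.54 on average. Setting the spike-ins equal instead added 0.54 to every difference, and to the median of all genes. On that scale Fdft1 (0.16), Sqle (0.17) and Dhcr7 (0.03) were higher in ELA-EpiSC, and the median of the 7 genes was 0.03. Measured from the all-gene median it remained -0.51. The 6 genes other than Lss were below the median of all genes under the processing used and under each alternative that kept them, a minimum level of 9 having left out Insig1. Whether the total mRNA per cell differed between the cultures was not measured.

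**Figure D3:**
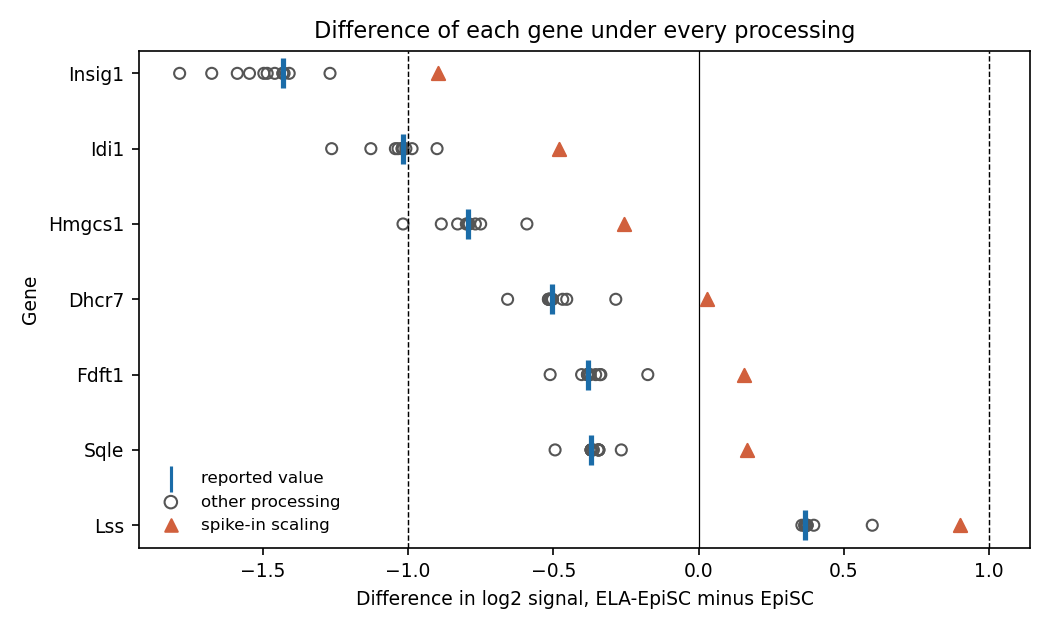
Log2 difference, ELA-EpiSC minus EpiSC (x axis), of each of the 7 genes (y axis) with the processing used (bars), with the other alternatives (circles) and with spike-in scaling (triangles); dashed lines mark 2-fold. Spike-in scaling lies 0.54 to the right of the reported value for every gene, and takes Dhcr7, Fdft1 and Sqle past 0.

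The other listed enzymes of the mevalonate pathway and of sterol synthesis are described relative to the median of all genes, since with spike-in scaling 0.54 is added to each. Of the 7 other mevalonate pathway enzymes, 6 were lower and 1 higher in ELA-EpiSC, with a median of -0.12. None was past 1.5-fold, beside 10.9% lower and 11.1% higher over all genes. Among the 6, Acat2 (-0.0069) and Ggps1 (-0.0561), named after their values were seen, changed sign under 4 alternatives each. Ggps1 acts on a branch of the pathway that does not lead to cholesterol. Mvd, which makes the substrate of Idi1, differed by -0.38, with readings of 11.59 and 11.21. Fdps, which joins the units made by Idi1, read 15.91 and 16.15, a difference of 0.24, and was the 1 higher gene, but it turned to -0.08 with the processed signal and -0.09 with 75th percentile scaling. Hmgcs1 and Idi1, in the same part of the pathway, had lower differences than each of these 7 enzymes, of which the lowest was -0.41 (Mvk).

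Among the 9 other enzymes that modify the sterol ring, 7 were lower and 2 higher in ELA-EpiSC, with a median of -0.36 (0.18 with spike-in scaling). Of these, 4 were past 1.5-fold lower and none higher, beside 10.9% and 11.1% of all genes. The 4 were named after their values were seen. They were Sc5d (-0.76), Tm7sf2 (-0.70), Msmo1 (-0.64) and Ebp (-0.59), which carry out desaturation, reduction, demethylation and isomerisation of the ring. Cyp51, which acts directly on the product of Lss, differed by -0.25, with readings of 11.46 and 11.20. Over all 22 listed enzymes, the 6 members and Ggps1 included, 18 were lower and 4 higher. Their median was -0.36 (0.17 with spike-in scaling). Of all genes with sufficient signal, 8291 were lower and 8357 higher. Past 1.5-fold lower were 6 of the 22, and 1, Idi1, was past 2-fold lower, beside 10.9% and 4.46% of all genes. Without the 6 members, 13 of 16 were lower and the median was -0.24. Relative to the median of all genes, the enzymes were therefore mostly on the EpiSC side, by amounts that were small for all but a few of them. With spike-in scaling their own median lay on the ELA-EpiSC side.

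Apart from Insig1, the listed genes that encode the sensing machinery lay close to the median of all genes. Of the 6 listed, Srebf1, which encodes the SREBP of fatty acid synthesis in its main form, was below the minimum level, at 7.53 and 7.43. The other 5 had a median of 0.16 and none was past 1.5-fold, beside 10.9% lower and 11.1% higher over all genes. With spike-in scaling the list median was 0.56, beside 0.54 over all genes. On that scale Scap (0.77) and Insig2 (0.69) were among those past 1.5-fold higher, and Srebf2 (0.41) was within it. Srebf2, the SREBP of cholesterol synthesis, read 10.77 and 10.64, a difference of -0.12. Scap, the escort and sterol sensor, read 12.40 and 12.64, a difference of 0.24. Insig2, the relative of Insig1 that is not itself induced by SREBP, read 11.66 and 11.81, a difference of 0.16, with its second probe at -0.12. Insig1 and Insig2 thus differed in opposite directions with the main probes, and by unequal amounts. These are mRNA signals, and processing of SREBP proteins was not measured.

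On the uptake side, all 11 listed genes had sufficient signal. Of these, 8 were lower and 3 higher in ELA-EpiSC, with a median of -0.66 (-0.12 with spike-in scaling). Mylip, a ubiquitin ligase induced by LXR that limits lipoprotein uptake, read 11.45 and 9.27, a difference of -2.18. Its second probe was dim and not well above background in ELA-EpiSC, and with the mean of both probes the difference was -1.40. Stard4, which carries sterol between membranes, read 12.55 and 11.00, a difference of -1.55, and its second probe differed by -0.87.

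Vldlr, a receptor for lipoproteins, was the exception among the uptake genes past 1.5-fold. It read 12.62 in EpiSC against 13.59, which is a difference of 0.97, and its second probe gave 1.22. With spike-in scaling and some other alternatives Vldlr was also past 2-fold. In all, 6 of the 11 uptake genes were past 1.5-fold lower and 1 higher, beside 10.9% and 11.1% of all genes, and 3 were past 2-fold lower, beside 4.46%. Those past 1.5-fold included Npc1 (-0.75) and Npc2 (-0.66), which move cholesterol out of lysosomes and were named after their values were seen. Lipa, the lysosomal lipase of the same list, was on the other side, at 0.31.

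Genes of cholesterol export and storage were divided. Of the 6 listed, Abca1, the first exporter to lipid-poor apolipoproteins, was below the minimum level at 7.42 and 6.30. Its difference of -1.13 therefore counts among no total. Abcg1, the exporter to HDL and like Abca1 an LXR target, read 10.40 and 8.67, a difference of -1.73 and 3.31-fold higher in EpiSC. Over the 5 with sufficient signal the median was 0.08, with 2 past 1.5-fold lower, beside 10.9% of all genes. These were Abcg1 and Apoe (-0.83, named after its value was seen). Nr1h2 and Nr1h3, which encode the LXR receptors, differed by 0.08 and 0.45. Of the 9 genes of fatty acid synthesis and desaturation, 7 were lower and 2 higher, with a median of -0.18. None was past 1.5-fold in either direction, beside 10.9% lower and 11.1% higher over all genes. With spike-in scaling their median was 0.36, beside 0.54 over all genes, and the 7 were on the other side. Over all 6 lists together, 46 of 48 genes had sufficient signal. Of those, 12 were past 1.5-fold lower and 1 higher, beside 10.9% and 11.1% of all genes. Past 2-fold, 4 were lower and none higher, beside 4.46% and 4.54%, and the median was -0.17.

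**Figure D4:**
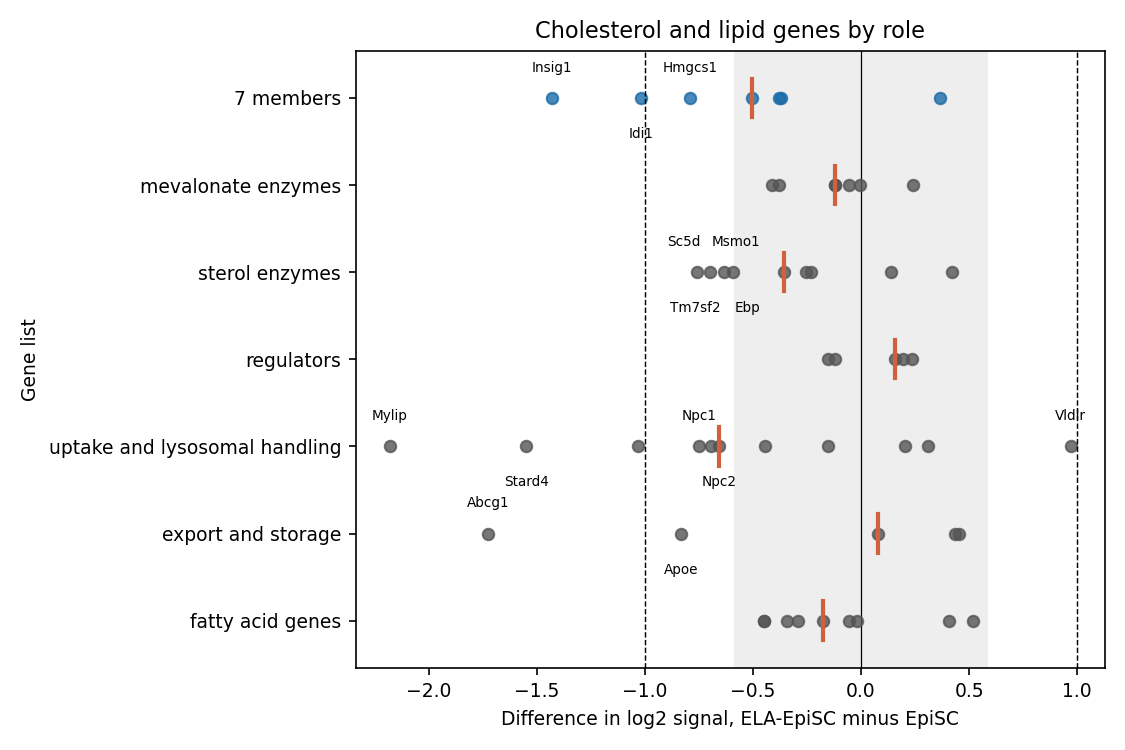
Log2 difference, ELA-EpiSC minus EpiSC (x axis), of each gene with sufficient signal (points) in the 7 members and 6 related lists (y axis); the vertical bars are list medians, the grey band is 1.5-fold and the dashed lines are 2-fold, and most genes past 1.5-fold are named near their point. The members and the uptake genes have the lowest medians, -0.51 and -0.66.

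The cultures differed in other markers too, and these are given because the RNA came from whole cultures, where fewer cells of a type and less RNA per cell cannot be told apart. All 7 markers of the primed state were well above background on both arrays. Pou5f1 (0.19), Fgf5 (0.16), Otx2 (0.00), Nanog (0.32) and Sox2 (-0.27) were within 1.5-fold, while Dnmt3b differed by -0.84 and Pou3f1 by 1.46. Of 5 markers of ground-state pluripotency, Zfp42 (-0.22), Klf4 (0.16) and Esrrb (0.43) were within 1.5-fold, while Tbx3 differed by -3.75 and Nr0b1 by -2.74. Of 11 markers of visceral endoderm, a lipid-handling tissue of the early embryo, 8 had sufficient signal. Of the 8, 7 were higher in EpiSC and 1, Cubn, in ELA-EpiSC. Past 2-fold higher in EpiSC were 4 of the 8, beside 4.46% of all genes. Hnf4a differed by -5.12, and Ttr was well above background in EpiSC only. Afp, Apob and Apoa1 were below the minimum level. Of these, Afp (0.21) and Apob (0.55) were higher in ELA-EpiSC, while Apoa1 was well above background in EpiSC only. Over the 11 without regard to level, 8 were higher in EpiSC and 3 in ELA-EpiSC. The summed linear signal of the 11, which is carried mainly by the bright probes of Foxa2 (-0.44) and Sox17 (-0.93), was 59908 in EpiSC and 32628 in ELA-EpiSC. Among 5 anterior neural markers Rax differed by -5.96 and Hesx1 by -4.38, whereas Sox1 (-0.09) and Six3 (-0.29) differed little and were on the other side with spike-in scaling. Pax6 was not well above background on the 2 arrays. The summed signal of the 4 detected, carried by Rax and Hesx1, was 13716 and 899. Of the 3 markers of fibroblasts or mesenchyme, Col1a1 and Col3a1 were higher in ELA-EpiSC, by 3.72 and 1.88 (the latter below the minimum level), and Thy1 differed by 0.05, with a summed signal of 1339 and 3257. Their part in the differences of the cholesterol genes was not tested.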

How the data were processed

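Total RNA of 2 samples was hybridised to 1-colour Agilent mouse arrays (62976 spots, 55681 probes), 1 per condition, on 1 slide and in 1 scan. Per the labels, 50 ng of RNA was labelled with Cy3. The deposited spot intensity values came from Feature Extraction 10.7.3.1 per the file headers, while the labels name version 9.1. The authors also deposited log2 values, background-corrected and quantile-normalized with limma, used here as an alternative. Here the mean spot signal was corrected with the median local background (normexp, offset 50), flagged spots (158 and 117) and control spots were left out, and arrays were quantile-normalized (R 4.3.3, limma 3.58.1). Repeat spots were averaged. A probe was detected if the share of its spots flagged well above background reached 0.5 (36645 and 36206 probes). A gene took its brightest detected probe, with a minimum mean log2 of 7.5, leaving 16649 genes. The sizes used were 2-fold, as in the study, and 1.5-fold. All 9 probes were named from the files and matched RefSeq symbols by accession. The precision is limited by the number of arrays.

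Named by rule were the 7 genes, most list genes past 2-fold, and Fdps, Mvd, Cyp51, Srebf1, Srebf2, Scap, Insig2 and Abca1. Other list genes, such as Mvk, Vldlr, Lipa, Nr1h2, Nr1h3 and those named after their values were seen, fall outside that rule. Some list genes are counted but not reported here by name. Members and lists were chosen with earlier results of these data known. The 15 alternatives covered background correction, scaling, signal, spot filter, probe rule and minimum level. The normalization was tested on simulated data. Exon and UTR positions of the probes in mm9 were not analysed here.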

Additional observations from a re-analysis of the deposited data

How the results depend on the processing

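No paired analysis was possible because each condition had 1 array. Of the 7 genes and the named genes of the related lists, none that was past 1.5-fold changed sign under any of the 15 alternatives. The median of the 7 genes, -0.51, was -0.66 with the processed signal, -0.29 with median scaling and 0.029 with spike-in scaling. The count past 2-fold lower, 2, was 1 with median scaling, cyclic loess or a minimum level of 9, 0 with spike-in scaling, and 3 with 75th percentile scaling, where Hmgcs1 reached -1.02. The count past 1.5-fold lower, 3, was 4 with the processed signal, 2 with a minimum level of 9 and 1 with spike-in scaling, and the count past 1.5-fold higher, 0, was 1 (Lss) with median or spike-in scaling.

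For the 6 related lists, the median of -0.17 was -0.28 with the processed signal, -0.0105 with median scaling and 0.38 with spike-in scaling. The count past 2-fold higher, 0, was 1 with median scaling, cyclic loess, median pixel signal, the deposited log2 values or the mean of all detected probes, and 2 with spike-in scaling. Past 1.5-fold higher, the count of 1 was 5 with median and 14 with spike-in scaling. Past 1.5-fold lower, 12 was 6 with median and 3 with spike-in scaling. For all genes, 756 past 2-fold higher was 2603 with spike-in scaling, and 742 lower was 321 with spike-in scaling and 481 with a minimum level of 9. Past 1.5-fold, 1846 higher was 2960 with median and 7944 with spike-in scaling, and 1823 lower was 1199 and 618. Spike-in scaling adds a constant to all differences, and the higher minimum level admits fewer genes. For the other alternatives the cause was not tested. With 1 array per condition, biological variation was not measured, and low signals such as those of Insig1 depend most on the background offset.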
